A study of Mastomys natalensis with 4 samples.

Results

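Acid secretion by the stomach depends on the parietal cell, and 7 genes listed as proton pump and parietal cell genes are described here. They are the proton pump subunits Atp4a and Atp4b, intrinsic factor (Cblif) and carbonic anhydrase 2 (Car2). The others are aquaporin 4 (Aqp4), ezrin (Ezr) and brain-type creatine kinase (Ckb). Cblif is included although chief cells are its main source in mouse and rat. All probe sets whose annotation gives exactly 1 of these symbols were taken, whatever their signal. That gave 8 probe sets, 2 of them for Aqp4 and 1 for each other gene, and the 7 genes are 7 of 8251 named by a probe set with 1 symbol. The arrays carried mouse probes, and the RNA was total RNA of gastric mucosa from Mastomys natalensis, an African rodent that is prone to tumours of the endocrine cells of the stomach. There were 2 samples taken after 16 weeks of loxtidine (loxitidine in the labels), with neoplasia of the enterochromaffin-like (ECL) cells, and 2 taken after 8 weeks, with hyperplasia of these cells. Loxtidine, a blocker of the histamine H2 receptor, was given to both groups, untreated mucosa was not analysed here, and treatment time and lesion stage cannot be told apart. The labels used here give no age, sex or number of animals per sample, and whether each sample is a different animal is not stated, so the p-values rest on a sample-to-sample spread that may be technical.

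Histamine released by ECL cells acts on H2 receptors of parietal cells and raises cyclic AMP, after which vesicles carrying the proton pump fuse with the canalicular membrane. The pump exchanges cytosolic protons for luminal potassium. Its alpha subunit Atp4a hydrolyses ATP and carries the ions, and its beta subunit Atp4b, a glycoprotein, is needed for assembly and delivery of the pump to the membrane. Carbonic anhydrase supplies the protons, mitochondria the ATP, and potassium channels return potassium to the lumen. When acid secretion is blocked, gastrin release increases, and gastrin stimulates growth of ECL cells.

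The 4 arrays had trimmed means within 4.76% of their common mean, and the deposited scale was kept. Intensities are on a linear scale in arbitrary units, and 12.15 units served as a floor, the 40th percentile of an array. A sample under the floor entered at the floor, so a difference that involves one depends on it. Mismatches between mouse probes and Mastomys RNA change the signal of each probe set by an unknown amount, so values are compared for 1 probe set between samples. Summed signals of lists are weighted towards their brightest probe sets. Some lists of other tissues set libraries apart. The summed signal of 8 intestinal-type genes was 190.2 and 188.2 (16 weeks) against 1331 and 252.7 (8 weeks), with 8-week sample 1 the highest. The summed signal of 10 squamous genes of the forestomach was 557.7 and 1897 (16 weeks) against 809.4 and 702.9 (8 weeks), with 16-week sample 2 the highest. Atp4a, Atp4b and Ckb read lowest in that sample, whereas Cblif, Car2, Aqp4 and Ezr did not. The summed signal of 9 pancreatic acinar genes was 2544 and 7138 (16 weeks) against 3987 and 1294 (8 weeks). The ratio of the 3′ to the 5′ probe set of beta-actin, a sign of RNA quality, was 1.46 and 1.63 (16 weeks) against 1.26 and 1.16 (8 weeks). That of Gapdh was 0.891 and 0.647 (16 weeks) against 0.714 and 0.589 (8 weeks), with overlap. The part of these differences in the results below was not tested.

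The comparison asks which transcripts of the described genes differed between the neoplastic and the hyperplastic stage. None of the 8 probe sets passed limma's test with Benjamini-Hochberg adjustment across the 7883 tested ones (threshold 0.05), and 0% of all tested probe sets passed it. An unadjusted p under 0.05 was found for 0 of the 8, and for 1100 of 7883 (14%) in all. The lowest adjusted p among the 8 was 0.369, for Atp4b. On the deposited scale 4 of the 8 differences were above 0 and 4 below, beside 56.3% above and 43.7% below among all tested probe sets, with a median of -0.05, beside a median of 0.09 over all tested probe sets. The groups did not overlap for 3 of the 8 probe sets, beside 49.3% of all tested probe sets. Of these 3, 2 were lower at 16 weeks (20.6% of all tested) and 1 was higher (28.7%).

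**Figure D1:**
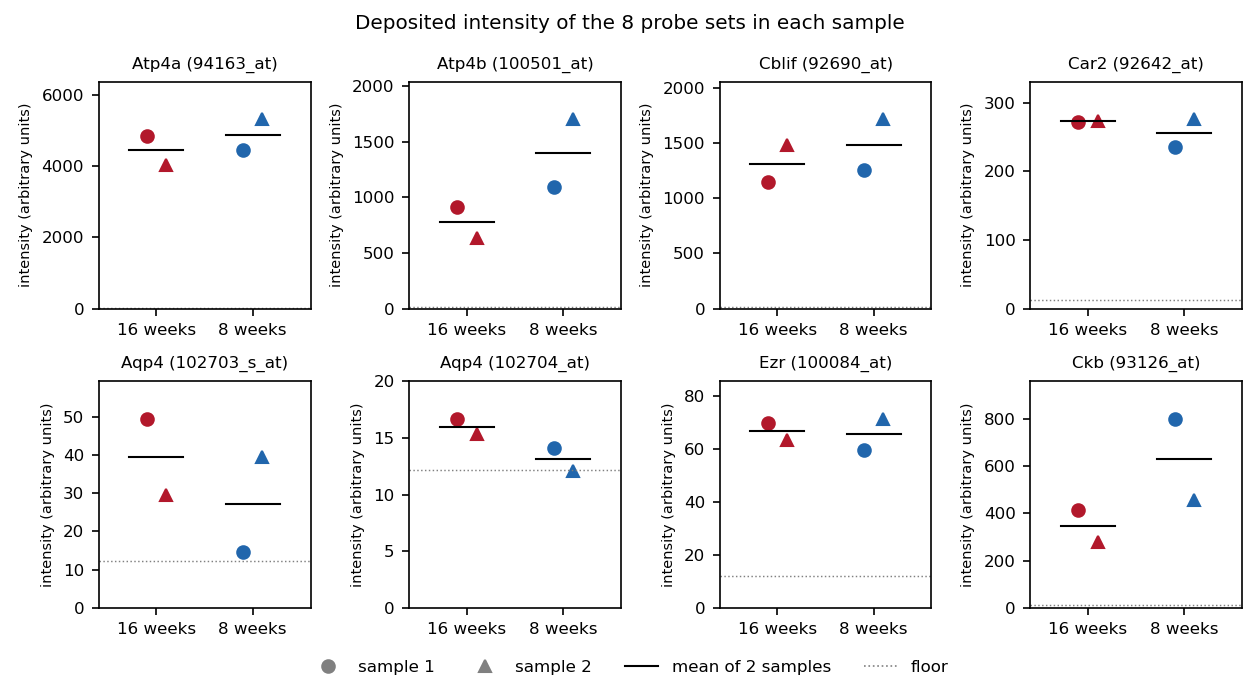
Deposited intensity (vertical axes, arbitrary units, from 0) of each of the 8 probe sets in the 16-week samples (left, red) and the 8-week samples (right, blue), with circles for sample 1, triangles for sample 2, black lines for the mean of 2 samples and a dotted line at the floor of 12.15. The groups lie apart for Atp4b and Ckb, both lower at 16 weeks, and for the dim Aqp4 probe set 102704_at, and they overlap for the other 5.

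The pump subunits had bright signals in every sample. Atp4a (probe set 94163_at) read 4850 and 4034 (16 weeks) against 4442 and 5304 (8 weeks). The groups overlapped, and the log2 difference of 16 minus 8 weeks was -0.13 ± 0.26 (SE, n = 2 per group), with a 95% interval of -0.79 to 0.52 and a limma adjusted p of 0.819. The interval spans folds of 0.578 to 1.44 of 16 over 8 weeks. Of all tested probe sets 80.7% had a difference at least as large in either direction. The brightest probe set of each array read 5535 and 5343 (16 weeks) against 6235 and 5838 (8 weeks), so Atp4a lay near the upper end of the signal in all 4 samples, and whether its signal was compressed there was not tested.

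Atp4b (100501_at) read 915.3 and 634 (16 weeks) against 1091 and 1701 (8 weeks). Both 16-week samples lay below both 8-week samples, and 8-week sample 2 was the highest. The log2 difference was -0.84 ± 0.35 (SE, n = 2 per group), 1.79-fold lower at 16 weeks, with a 95% interval of -1.73 to 0.05 and a limma adjusted p of 0.369. A difference at least this large, in either direction, was found for 12.5% of tested probe sets. Within a group the samples differed by 1.44-fold at 16 weeks and by 1.56-fold at 8 weeks. The difference kept its sign with each sample left out in turn (-1.16 to -0.52), and it was -0.45 after quantile normalization and -0.40 with the arrays aligned on hybridisation controls. In bulk mucosa a change in the share of a cell type and a change in RNA per cell cannot be told apart, for this and every other gene given here.

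The subunits were also compared within each sample, where a scaling of the whole array cancels. A compression of the bright Atp4a signal, which was not tested, would not cancel. The log2 signal of Atp4b minus that of Atp4a was -2.41 and -2.67 (16 weeks) against -2.03 and -1.64 (8 weeks). The groups did not overlap, and the ratio was lower at 16 weeks by 0.70 on the log2 scale (difference -0.70), but an exact permutation test (2-sided) of 2 against 2 samples gave p = 0.333, the smallest value it can give. With a sample left out the difference lay between -0.90 and -0.51, and quantile normalization gave -0.51. Such a shift was not particular to Atp4b. Relative to Atp4a, Ckb changed by -0.70, Car2 by 0.235 and Ezr by 0.16, also without overlap of the groups. Aqp4 (brighter probe set) changed by 0.80 and Cblif by -0.04, both with overlap. For Ckb the nearest samples were almost level, at -3.551 (16-week sample 1) and -3.543 (8-week sample 2). The share of all tested probe sets without overlap relative to Atp4a was not computed. On the intensities themselves that share was 49.3%.

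**Figure D2:**
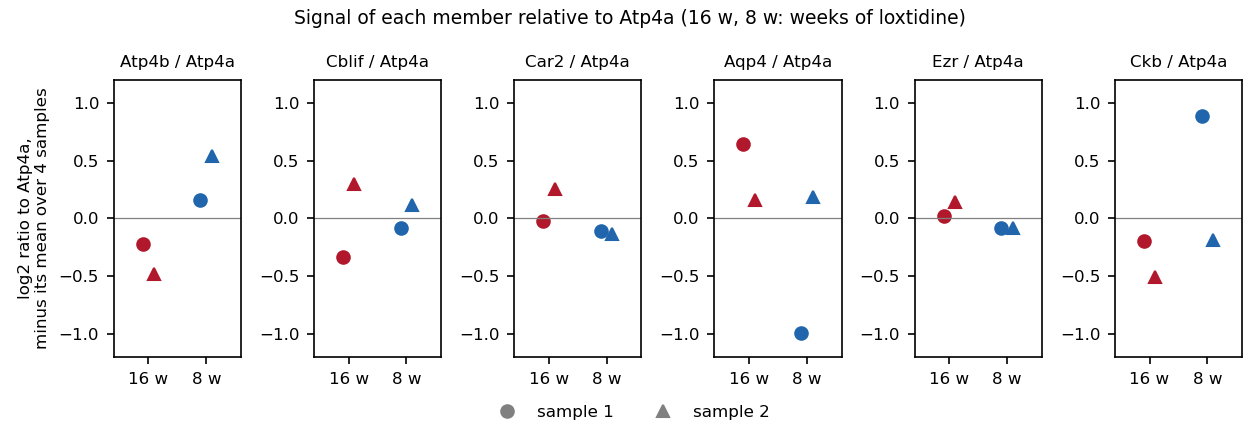
Log2 ratio of each member's signal to that of Atp4a in the same sample, minus its mean over the 4 samples (vertical axis), at 16 weeks (left, red) and 8 weeks (right, blue), with circles for sample 1 and triangles for sample 2; Aqp4 is its brighter probe set. Atp4b relative to Atp4a was -2.41 and -2.67 at 16 weeks, against -2.03 and -1.64 at 8 weeks, before the mean was taken off, and 8-week sample 1 stands away from the other samples for Aqp4 (low) and Ckb (high).

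Intrinsic factor, which binds vitamin B12 for uptake in the ileum, is made mainly by chief cells in mouse and rat and by parietal cells in humans. Cblif (92690_at) read 1147 and 1479 (16 weeks) against 1254 and 1715 (8 weeks). The groups overlapped, with sample 2 above sample 1 in each, and the log2 difference was -0.17 ± 0.29 (SE, n = 2 per group; 95% interval -0.92 to 0.58; limma adjusted p = 0.796). Its sign changed after quantile normalization (0.18) and on hybridisation controls (0.26), and without 16-week sample 1 (0.01) or 8-week sample 2 (0.05). Of 12 genes of vitamin B12 handling 4 were tested, 2 above 0 and 2 below on the deposited scale (1 below after quantile normalization and 0 on hybridisation controls), and 0 passed in either direction. The intestinal receptor for intrinsic factor, cubilin (Cubn), read 25.1 and 33.3 (16 weeks) against 18.7 and 14.1 (8 weeks) (difference 0.83 ± 0.29, limma adjusted p = 0.343), while its second probe set gave 0.19. Transcobalamin (Tcn2), the carrier of vitamin B12 in blood, gave -0.32 ± 0.28, and 0.12 on hybridisation controls. Megalin (Lrp2), an endocytic receptor that takes up transcobalamin in the kidney, gave 0.38 ± 0.44, with 8-week sample 2 under the floor, and -0.18 without 8-week sample 2.

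Carbonic anhydrase 2 forms bicarbonate and protons from carbon dioxide in the cytosol of parietal cells, and also of surface cells and other epithelia. Car2 (92642_at) read 272.3 and 274.1 (16 weeks) against 235.2 and 275.9 (8 weeks). The 16-week values lay between the 8-week values, and 8-week sample 1 was the lowest. The log2 difference was 0.10 ± 0.24 (SE, n = 2 per group; 95% interval -0.51 to 0.72; limma adjusted p = 0.854), and it was -0.12 with the arrays on a common median and -0.01 without 8-week sample 1. Of 16 carbonic anhydrases 5 were tested, 4 above 0 and 1 below (3 and 2 on a common median), and 0 passed. The membrane-anchored Car4 read 128.3 and 98.6 (16 weeks) against 20.3 and 69.4 (8 weeks) (1.58 ± 0.61, limma adjusted p = 0.357), and 0.01 on its second probe set. Without 8-week sample 1 the first of these was 0.70. Car14, another membrane enzyme, gave 0.23 ± 0.65, with 62.8 in 16-week sample 1 and 17.9 in 16-week sample 2, and was -0.67 without 16-week sample 1. Car1, the isoform abundant in red blood cells and colon, read 14.4 and 13.4 at 16 weeks, against 8.3 in both 8-week samples, which lie under the floor, and was at least 1.14-fold higher.

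Aquaporin 4, a water channel of the basolateral membrane of parietal cells in rodents and of astrocytes in brain, gave dim signals. The probe set 102703_s_at, whose suffix marks probes shared by similar transcripts, read 49.5 and 29.5 (16 weeks) against 14.6 and 39.5 (8 weeks). The groups overlapped, and the 8-week samples differed by 2.71-fold from each other. The log2 difference was 0.67 ± 0.56 (SE, n = 2 per group; 95% interval -0.76 to 2.10; limma adjusted p = 0.588), and leaving out 8-week sample 1 gave -0.05, leaving out 8-week sample 2 gave 1.39. The probe set 102704_at read 16.7 and 15.3 (16 weeks) against 14.1 and 12.1 (8 weeks), with 8-week sample 2 just under the floor. Its groups did not overlap, its difference was 0.29 ± 0.24 (limma adjusted p = 0.592), and quantile normalization brought it to -0.0008. Of 11 genes of the aquaporin family 5 were tested, 3 above 0 and 2 below (4 and 1 on hybridisation controls), and 0 passed. Aqp2, the vasopressin-regulated channel of the kidney collecting duct, read 29.7 and 32.5 (16 weeks) against 6 and 12.4 (8 weeks) (1.34 ± 0.23, limma adjusted p = 0.301, with 8-week sample 1 under the floor). Aqp8, found in several digestive epithelia, gave 0.64 ± 0.33, and Aqp7, a channel for water and glycerol, gave -0.54 ± 0.43, and 0.03 without 8-week sample 1.

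Ezrin ties actin filaments to the plasma membrane and lies in the microvilli of the secretory canaliculus. Ezr (100084_at) read 70 and 63.5 (16 weeks) against 59.7 and 71.5 (8 weeks). Each 16-week value lay between the 8-week values, and the log2 difference was 0.03 ± 0.25 (SE, n = 2 per group; 95% interval -0.60 to 0.66; limma adjusted p = 0.964). A change of up to 1.58-fold upward, or to 0.658 of the 8-week level, lies inside that interval. The sign was negative after quantile normalization (-0.01), on a common median (-0.19) and without 8-week sample 1 (-0.10). The relatives radixin (Rdx) and moesin (Msn), which share its function, gave -0.15 ± 0.24 and 0.16 ± 0.25. The signs of both also depended on the scaling, at 0.28 for Rdx on hybridisation controls and -0.07 for Msn on a common median.

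Genes of pump recycling and of the actin cortex gave no call. Of 32 listed genes 27 were tested, with 19 below 0 and 8 above on the deposited scale (10 and 17 on hybridisation controls), a median of -0.15 beside 0.07 over all 5864 tested genes, and 0 passed in either direction. An unadjusted p under 0.05 was found for 6 below 0 and 1 above, beside 14% of all tested probe sets. In the brightest 10% of tested probe sets the median was -0.25, and the part of brightness in this list was not tested. Syntaxin 3 (Stx3), a fusion protein of apical membranes and tubulovesicles, read 8.5 and 3.9 at 16 weeks, both under the floor, against 32.5 and 38.7 at 8 weeks, at least 2.92-fold lower (limma adjusted p = 0.301). Its 2 other probe sets were too dim to be tested. Rab11a, the small GTPase of recycling vesicles that carry the pump, read 535.4 and 498.9 (16 weeks) against 803.3 and 748.8 (8 weeks) (-0.59 ± 0.23, limma adjusted p = 0.364; -0.15 on hybridisation controls). Its motor Myo5b, named here after its values were seen, read 111.2 and 73.2 (16 weeks) against 218.7 and 150 (8 weeks) (-1.01 ± 0.34; -0.57 on hybridisation controls). Picked by its value, Myo5b adds nothing to the result of Rab11a. The epithelial Rab25 gave -0.02 ± 0.23 (0.41 on hybridisation controls), and the vesicle fusion protein Vamp2 gave -0.02 ± 0.24 (0.42 on hybridisation controls). Beta-actin (Actb) gave -0.79 ± 0.26 (-0.35 on hybridisation controls). Its second probe set gave -0.54 ± 0.36, and -0.11 without 16-week sample 2. Myosin light chain kinase (Mylk) gave -0.68 ± 0.23 (-0.25 on hybridisation controls). Mylk is also a smooth muscle gene. The summed signal of 9 tested smooth muscle genes was 1906 and 1826 (16 weeks) against 3524 and 3049 (8 weeks). The part of smooth muscle in these differences was not tested.

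Creatine kinase regenerates ATP from phosphocreatine, and the brain-type enzyme is found in parietal cells as well as in smooth muscle, brain and intestinal epithelium. Ckb (93126_at) read 413.9 and 277 (16 weeks) against 800.4 and 455.2 (8 weeks). Both 16-week samples lay below both 8-week samples, and 8-week sample 1 was the highest by 1.76-fold over 8-week sample 2. The log2 difference was -0.83 ± 0.39 (SE, n = 2 per group; 95% interval -1.83 to 0.16; limma adjusted p = 0.394), 1.78-fold lower at 16 weeks, a difference about as large as that between the 8-week samples. Leaving out 8-week sample 1 gave -0.43, and leaving out 8-week sample 2 gave -1.24. The sums of smooth muscle and intestinal-type genes given above were also highest in 8-week sample 1. The part of these cells in the Ckb signal was not tested. Of 11 genes of creatine and adenylate kinases 8 were tested, 6 below 0 and 2 above (4 and 4 on hybridisation controls), and 0 passed. The mitochondrial creatine kinase Ckmt1 read 71.9 and 60.9 (16 weeks) against 151.2 and 113.5 (8 weeks) (-0.99 ± 0.27, limma adjusted p = 0.320). Its second probe set had the opposite sign (0.58 ± 0.27). Adenylate kinase 3 (Ak3), of the mitochondrial matrix, gave -1.06 ± 0.52, and 0.32 on its second probe set. The creatine transporter Slc6a8 gave -0.72 ± 0.40.

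**Figure D3:**
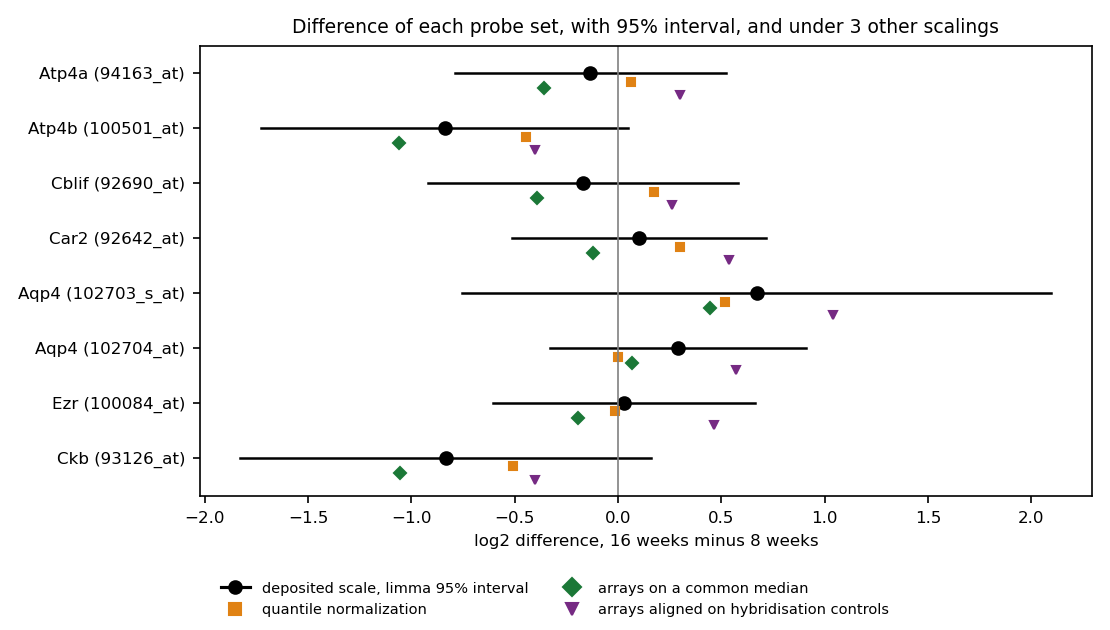
Log2 difference of 16 minus 8 weeks (horizontal axis) of each probe set on the deposited scale (black circle) with limma's 95% interval (bar), and the value under 3 other scalings of the arrays (coloured symbols, no intervals). Every interval includes 0, and Atp4b and Ckb lie below 0 under all 4 scalings, at -1.06 to -0.40 each.

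How the arrays were scaled moved the members' differences. Relative to the deposited scale, putting the arrays on a common median lowered the difference of Atp4a by 0.22 (shift -0.22), and aligning them on 9 bacterial hybridisation control probe sets raised it by 0.43. Quantile normalization raised Atp4a, Atp4b, Cblif, Car2 and Ckb by 0.20 to 0.39, and its shifts were -0.15 and -0.29 for the Aqp4 probe sets and -0.04 for Ezr. The median over all tested probe sets was 0.09 on the deposited scale, 0.02 after quantile normalization, -0.11 on a common median and 0.45 on hybridisation controls. Relative to that median Atp4b lay at -0.93, -0.47, -0.95 and -0.86 in the same order of scalings. Ckb lay at -0.92, -0.53, -0.95 and -0.85. Atp4a lay at -0.22, 0.04, -0.25 and -0.15, and Cblif at -0.26, 0.15, -0.29 and -0.19. The values of Atp4b and Ckb were thus below the median of all probe sets under each scaling, whereas Atp4a and Cblif changed side.

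Bright probe sets as a whole tended to read lower at 16 weeks on the deposited scale. In the brightest 10% of tested probe sets (789) the median difference was -0.25 and 69.6% were below 0. In the dimmest 10% (788) the median was 0.15 and 31.1% were below 0. Atp4a, Atp4b, Cblif, Car2 and Ckb belong to the brightest 10%. The differences of Atp4a (-0.13), Cblif (-0.17) and Car2 (0.10) lay above the median of that bin, and those of Atp4b (-0.84) and Ckb (-0.83) below it. With 10 bins of equal size numbered from the dimmest, Ezr lay in bin 8, whose median was 0.04, and the Aqp4 probe sets lay in bins 5 and 1.

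**Figure D4:**
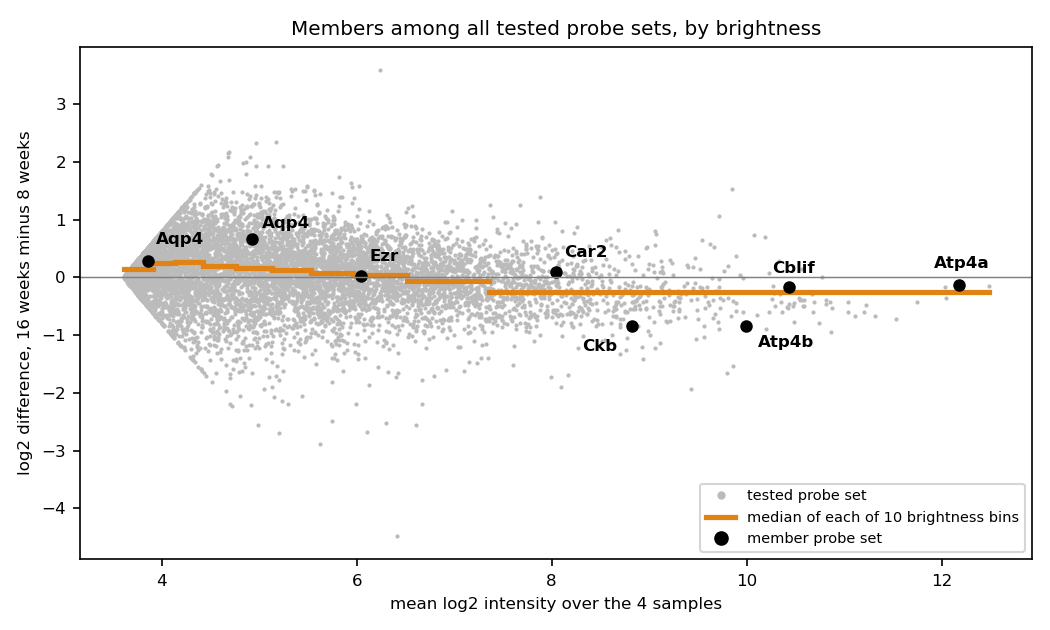
Log2 difference of 16 minus 8 weeks (vertical axis) against the mean log2 intensity over the 4 samples (horizontal axis) for all 7883 tested probe sets (grey), with the 8 member probe sets in black and the median of each of 10 brightness bins in orange. The median is -0.25 in the brightest bin, where Atp4b and Ckb lie below the line and Atp4a, Cblif and Car2 above it.

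The receptors that drive or restrain the parietal cell gave no call. The H2 receptor Hrh2, the target of loxtidine, read 61.8 and 42.8 (16 weeks) against 32.3 and 44 (8 weeks) (0.45 ± 0.32, groups overlapping, limma adjusted p = 0.533). The gastrin receptor Cckbr, present on both ECL and parietal cells, gave 0.49 ± 0.25. The somatostatin receptor Sstr2 gave 0.20 ± 0.23, 0.56 ± 0.35 and -0.46 ± 0.42 on 3 probe sets, the first of them at -0.02 on a common median. Of 27 listed receptors and signalling genes 15 were tested, 8 below 0 and 7 above (3 and 12 on hybridisation controls), and 0 passed. Gnaq, the G protein alpha subunit that couples the muscarinic and gastrin receptors to calcium, read 5.9 and 12.2 (16 weeks) against 19.7 and 28.6 (8 weeks) (-0.96 ± 0.28, with 16-week sample 1 under the floor). Gnas, which couples the H2 receptor to cyclic AMP, gave -0.61 ± 0.30 (-0.02 ± 0.27 on a second, dim probe set), and its target adenylyl cyclase 6 (Adcy6) 0.58 ± 0.25.

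Ion transport genes of acid secretion were few on the array. Of 24 listed genes 11 were named by a probe set and 9 tested, 5 above 0 and 4 below (8 and 1 on hybridisation controls), with a median of 0.33 (0.07 without 8-week sample 1), and 0 passed. Kcnq1, the potassium channel that recycles potassium to the lumen, read 236.9 and 215.5 (16 weeks) against 146.5 and 214.9 (8 weeks) (0.35 ± 0.29, limma adjusted p = 0.589). On its second probe set it read 101.8 and 74.6 (16 weeks) against 44.8 and 60.1 (8 weeks) (0.75 ± 0.30, limma adjusted p = 0.364). The groups did not overlap on either. The potassium channels Kcnj1 and Kcnj15 gave 0.80 ± 0.30 and 0.33 ± 0.28, and the chloride channel Clcn2 0.63 ± 0.32, with 8-week sample 1 under the floor for Kcnj1 and 8-week sample 2 for Clcn2. The basolateral anion exchanger Slc4a2, which exports bicarbonate, gave -0.13 ± 0.35 (0.02 after quantile normalization and 0.30 on hybridisation controls, and 0.28 without 8-week sample 2). The sodium bicarbonate cotransporter Slc4a4 gave -0.67 ± 0.45, and the chloride importer Slc12a2 gave -0.41 ± 0.30 (0.02 on hybridisation controls). Kcne2, Kcnj16, Clic6, Slc9a2, Slc9a4 and Slc26a7 had no named probe set in the annotation used. Of the relatives of the pump subunits, the sodium pump beta subunit Atp1b1 gave 0.19 ± 0.24 (-0.03 on a common median) and Atp1b3 -0.20 ± 0.24 (0.01 after quantile normalization and 0.23 on hybridisation controls). The sodium pump regulator Fxyd3 gave -0.44 ± 0.26.

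Parietal cells are packed with mitochondria, and 42 genes of the respiratory chain, ATP synthase and citric acid cycle were tested. On the deposited scale 29 were below 0 and 13 above, with a median of -0.31, beside 44.7% below 0 and a median of 0.07 over all tested genes. None passed (0 of 42), and 5 below and 2 above had an unadjusted p under 0.05, beside 14% of all tested probe sets. Among the brightest 10% of tested probe sets 69.6% were below 0 on the deposited scale, with a median of -0.25. The part of brightness in the values of the mitochondrial list was not tested. On hybridisation controls 13 of the 42 genes were below 0 and the median was 0.10. The summed signal of these genes was 8294 and 6770 (16 weeks) against 9837 and 10610 (8 weeks). The complex I subunit Ndufv2 read 78.8 and 63.5 at 16 weeks, against 128.8 in both 8-week samples (-0.86 ± 0.25, limma adjusted p = 0.325), and gave -0.07 on a second probe set. The cytochrome oxidase subunit Cox7a2 gave -1.06 ± 0.34, and the phosphate carrier Slc25a3 read 20.1 and 18.6 (16 weeks) against 7 and 10.1 (8 weeks), both of the 8-week samples under the floor, at least 1.59-fold higher. Among transcription factors and secreted factors of the gland 15 were tested, 8 above 0 and 7 below with a median of 0.001 (-0.22 on a common median and 0.44 on hybridisation controls), and 0 passed. The growth factor receptor Egfr gave 0.61 ± 0.29 (-0.06 on a second probe set). Bmp4, a signal from the stroma to the gland, gave 0.49 ± 0.25 (-0.59 on a second probe set), and the endoderm factor Foxa2 read 66.3 and 17.9 (16 weeks) against 64.7 and 72.6 (8 weeks), a difference of -0.99 ± 0.64 that was -0.05 without 16-week sample 2.

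Markers of neighbouring cell types were set beside the members to place the samples. The label of gastric mucosa was matched by signals of surface cell markers (Muc5ac and Tff1) and of chromogranin A (Chga), while histidine decarboxylase (Hdc), the ECL cell enzyme, lay under the floor in all 4 samples. Pepsinogen C (Pgc), Kcne2 and Slc26a7 were not named by the annotation. Muc5ac, the gel-forming mucin of surface cells, read 300.7 and 231.9 (16 weeks) against 363.8 and 459.1 (8 weeks) (-0.63 ± 0.28, limma adjusted p = 0.386). Krt20, a keratin of surface cells and of intestinal epithelium, read 39.5 and 40.8 (16 weeks) against 13.5 and 22 (8 weeks), the opposite direction (1.22 ± 0.32, limma adjusted p = 0.309). Tff2, a peptide of mucous neck cells, gave -1.09 ± 0.33, with 16-week sample 1 under the floor. Chga read 299.4 and 231 (16 weeks) against 141.2 and 241.7 (8 weeks), with overlap (0.51 ± 0.35), and gave 1.08 ± 0.38 on a second probe set. Of 8 surface and neck mucous genes 6 were below 0 (3 on hybridisation controls), of 13 ECL and neuroendocrine genes 5 (8 after quantile normalization), and 0 of either list passed. The summed signal of the mucous genes was 9143 and 8519 (16 weeks) against 10040 and 10400 (8 weeks). That of the 7 members was 7718 and 6791 (16 weeks) against 7897 and 9562 (8 weeks). Most of this sum is Atp4a, at 4850 and 4034 (16 weeks) against 4442 and 5304 (8 weeks). The sum therefore describes mainly Atp4a and not the members as a set.

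Among the endocrine genes gastrin (Gast), the antral hormone that stimulates acid secretion and ECL cell growth, had the difference farthest below 0. It read 25.8 and 63 (16 weeks) against 328 and 170.1 (8 weeks), without overlap (-2.55 ± 0.55, limma adjusted p = 0.307). Its other tested probe sets gave -4.48 ± 0.84 and -2.55 ± 0.78, each with 16-week sample 1 under the floor. Gastrin is made in the antrum and parietal cells lie mostly in the corpus, and the share of antrum in each sample is not given in the labels. Of other gastric hormones, not limited to the antrum, somatostatin (Sst) gave -0.28 ± 0.23 (0.16 on hybridisation controls) and ghrelin (Ghrl) gave -0.19 ± 0.38 (0.25 on hybridisation controls). Of neuroendocrine genes, the granule protein Scg2 gave 0.89 ± 0.31, the fusion protein Snap25 1.06 ± 0.39 and the neuronal ubiquitin hydrolase Uchl1 -1.03 ± 0.50, which was -0.33 without 16-week sample 1. Of chief cell genes, Mia was at least 1.41-fold higher, with both 8-week samples under the floor. Gpx3, a secreted peroxidase, gave -0.90 ± 0.48, and the chitinase Chia1 -0.28 ± 0.24 (0.07 after quantile normalization and 0.15 on hybridisation controls).

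Genes of muscle and stroma had differences below 0 at the top of their lists. The smooth muscle gene Smtn read 24.1 and 21.2 (16 weeks) against 156.6 and 103.7 (8 weeks) (-2.50 ± 0.30, limma adjusted p = 0.301), and Actg2 and Cnn1, of the contractile apparatus, gave -0.90 ± 0.25 and -0.82 ± 0.27. Elastin (Eln) read 29.5 and 30.1 (16 weeks) against 129.9 and 142 (8 weeks) (-2.19 ± 0.23, limma adjusted p = 0.301), and the collagens Col3a1 and Col5a2 gave -1.53 ± 0.30 and -1.17 ± 0.28. The fibroblast and matrix list as a whole went both ways. Of its 15 tested genes 9 were below 0 and 6 above, with a median of -0.06 (0.37 on hybridisation controls), and 0 passed. Of 9 tested smooth muscle genes 7 were below 0 and 2 above, with a median of -0.69, and 0 passed. Leukocyte genes went both ways, with the T cell marker Cd4 at 1.09 ± 0.26 and the antigen presentation genes Cd74 and H2-Aa at -1.07 ± 0.30 and -1.90 ± 0.62, the last of these -0.99 without 8-week sample 1. The erythrocyte anion exchanger Slc4a1 gave 0.71 ± 0.24, and the globins Hbb-b2 and Hba-a1 gave 0.48 ± 0.30 and -0.42 ± 0.30 (0.02 for Hba-a1 on hybridisation controls).

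For several genes of other epithelia 1 library carried much of the difference. The trefoil peptide Tff3 read 15.7 and 13.2 (16 weeks) against 492.9 and 17.8 (8 weeks) (-2.70 ± 1.52), and the difference was -0.31 without 8-week sample 1. The intestinal lectin Lgals4 gave -1.46 ± 0.45 (-0.85 without 8-week sample 1), and the fatty acid binding protein Fabp1 -0.53 ± 0.26, with 16-week sample 1 under the floor. Of pancreatic enzymes, the lipase Cel gave 1.53 ± 0.68 (0.56 without 8-week sample 2), Cela2a, an elastase, 0.60 ± 0.25, and the lipase-related Pnliprp2 0.59 ± 0.27 with 8-week sample 2 under the floor. Of squamous genes, Trp63, a transcription factor of stratified epithelia, gave 0.64 ± 0.26, with 8-week sample 2 under the floor. The keratin Krt17 gave 0.92 ± 0.52 (0.25 without 8-week sample 2), and the envelope protein Sprr1a 0.95 ± 0.61 (0.13 without 8-week sample 1, which lay under the floor). The part of these tissues in the members' values was not tested.

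**Figure D5:**
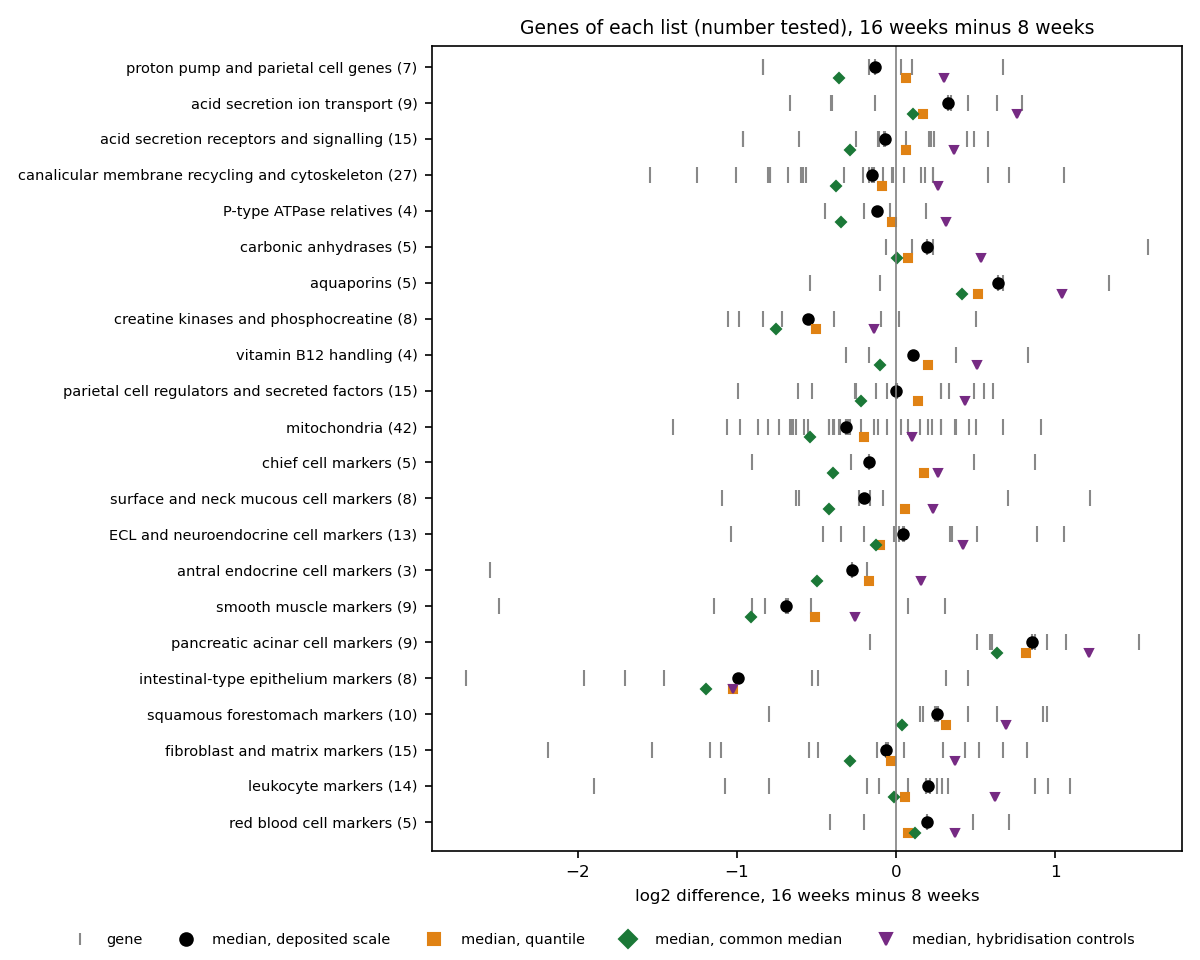
Log2 difference of 16 minus 8 weeks (horizontal axis) of each tested gene (grey ticks) in the 22 lists, with the list's median on the deposited scale (black) and under 3 other scalings (coloured symbols below it). The median of the 7 proton pump and parietal cell genes was -0.13 and ranged from -0.36 to 0.30 over the other scalings. The smooth muscle, intestinal-type and creatine kinase medians were below 0 under all 4 scalings. Medians of acid secretion ion transport, aquaporins, carbonic anhydrases, pancreatic acinar, squamous and red blood cell genes were above 0 under all 4. Without 8-week sample 1 the ion transport median was 0.07 and that of aquaporins 0.03. Without 16-week sample 2 the pancreatic acinar median was -0.10 and the squamous median -0.05. The creatine kinase median was -0.55, and -0.03 without 16-week sample 1. The intestinal-type median was -0.99, and -0.07 without 8-week sample 1.

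Genes were ranked by the likeness of their profile over the 4 samples, as the root mean square difference of log2 values after each gene was centred on its mean. Closest to Atp4b were Derl2, a protein of endoplasmic reticulum quality control (0.06), the G protein subunit Gna13 (0.07), the transcription factor Arnt (0.09), the activin-binding protein Fst (0.09) and the retromer subunit Vps29 (0.09). Derl2 read 50.4 and 38.4 (16 weeks) against 62.7 and 93.1 (8 weeks). A total of 91 genes lay within 0.2 of Atp4b, and 1285 lay within 0.2 of Atp4a, whose profile was flatter. Closest to Atp4a were the dynein chain Dync1i2 (0.01) and the guanylate kinase Guk1, the potassium channel Kcnn4, the phosphatase subunit Ppp6r3 and the galactosyltransferase B4galt3 (0.03 each). With 4 samples such likeness is a description of these arrays.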

How the data were processed

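The table holds the authors' deposited intensity of 12488 probe sets in 4 samples, per the labels' mouse U74 arrays. The sources used here do not give the method behind these intensities or any scaling of the arrays. Gene symbols came from the platform annotation (10833 of 12422 probe sets other than controls had 1 symbol, 396 several and 1193 none).

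Values under 12.15 (the median over arrays of the 40th percentile) were set to that floor and log2 was taken. The 7883 probe sets above it on at least 2 arrays were fitted with limma 3.58.1 (R 4.3.3; lmFit and eBayes, 2-sided, Benjamini-Hochberg over all of them, threshold 0.05), 16 minus 8 weeks, with all 4 samples and no covariate. A gene with several probe sets was represented in lists by its brightest tested one. Named from each list were the 3 genes with the smallest p, plus a fixed set of 30 genes. The members and lists were chosen with earlier results of these data known. The precision is limited by the number of arrays. The alternatives were other scalings (quantile, common median, hybridisation controls), floors, filters and variance models, an offset of 16 in place of the floor, a replicate block, and each sample left out.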

Additional observations from a re-analysis of the deposited data

How the results depend on the processing

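No probe set of the 7 genes passed limma's test under any alternative. The lowest adjusted p of a member lay between 0.252 and 0.647, and an unadjusted p under 0.05 was found for at most 2 members. Over all probe sets 0 passed under every alternative (limma; 591 to 1568 with an unadjusted p under 0.05), with each sample left out included, except with no filter on dim probe sets, where 22 of 12422 passed; the cause was not tested. The differences of Atp4b and Ckb kept their sign under every alternative. Signs that changed, each short of the threshold, were as follows. Quantile normalization gave 0.063 for Atp4a, 0.18 for Cblif, -0.0008 for Aqp4 (102704_at) and -0.013 for Ezr. A common median gave -0.12 for Car2 and -0.19 for Ezr, and hybridisation controls 0.30 for Atp4a and 0.26 for Cblif. With a sample left out the ranges were -0.40 to 0.055 for Cblif, -0.014 to 0.22 for Car2, -0.048 to 1.39 for Aqp4 (102703_s_at) and -0.10 to 0.16 for Ezr. The labels share the numbers 1 and 2 between the groups without giving them a meaning. Deviations of same-numbered samples correlated at -0.05 over probe sets. That value alone, from 1 pair of samples per group, cannot tell whether same-numbered samples were handled together. With the replicate block 0 probe sets passed, and the difference of Atp4b minus Atp4a was -0.70. That difference lay between -0.90 and -0.51 with a sample left out. With 2 samples per group, the 95% intervals of all 8 probe sets include 0.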
